A study of Mus musculus with 13 samples.

Results

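A set of 10 genes of the vascular endothelial growth factor (VEGF) and angiopoietin axis were followed in purified mouse glomeruli, the capillary tufts that filter blood in the kidney. They were chosen by symbol, with earlier results of these data known, as 10 of the 46958 genes in the count table. They are the ligands Vegfa, Vegfc and Pgf and the receptors Flt1 and Kdr with the co-receptor Nrp1. The others are the angiopoietins Angpt1 and Angpt2 and the receptors Tek and Tie1. RNA was sequenced from 13 libraries of beads-purified glomeruli from mice aged 6 months on the mixed C57/BL6x129/SVxBALB/c background. Of these, 4 libraries came from the genotype kFRA (LCDD), named after light chain deposition disease, a disorder in which light chains of monoclonal antibodies build up as deposits in kidney basement membranes. A further 4 came from the genotype DH-LMP2A, which the labels name without describing, and 5 from wild type (WT). The labels do not say whether LCDD mice also carry what DH-LMP2A mice carry, and give no promoter, line or sex. Each library pooled 3 mice, except WT replicates 3, 4 and 5, which held 1 mouse each.

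In the glomerulus, podocytes outside the filtration barrier secrete VEGF-A, which reaches the fenestrated endothelium and acts there through KDR (VEGFR2). FLT1 (VEGFR1) binds VEGF-A and placental growth factor and can act as a decoy, and neuropilin-1 (NRP1) presents VEGF-A to KDR and also binds class 3 semaphorins. Angiopoietin-1 activates the receptor TEK (TIE2) and steadies endothelium, angiopoietin-2 competes with it in many settings and is known as a product of activated endothelium, and TIE1 modulates TEK signalling. Excess or loss of VEGF-A in podocytes is known to damage the glomerulus.

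Libraries held 16687509 to 30587890 counts in genes, and levels between libraries are given in CPM, counts scaled to a common library size with TMM factors. All 10 podocyte markers and all 12 endothelial markers looked for were detected in each genotype, with podocyte markers summing to 7320 to 34802 CPM and endothelial markers to 4213 to 11022 CPM. Tubule markers, which mark tissue outside the glomerulus, summed to 763 to 2362 CPM in LCDD, 1031 to 3967 CPM in DH-LMP2A and 260.5 to 3431 CPM in WT. The titles carry a 6-digit code shared across genotypes, whose meaning is not stated: replicates 1 to 4 of LCDD and of DH-LMP2A carry the first, the second, the third and the fourth code in ascending order, WT replicate 1 the first, WT replicate 2 the third and WT replicates 3 to 5 the fourth. Ddx3y, a Y-linked gene, had 0 or 1 count in 4 of the 5 WT libraries and 197 in WT replicate 2. The LCDD and DH-LMP2A libraries had 208 to 2296 counts, so genotype and sex composition cannot be told apart in comparisons with WT. Ddx3y was also uneven between LCDD and DH-LMP2A libraries of the same title code. Replicates 1 to 4 had 2214, 296, 1861 and 208 counts in LCDD and 1336, 2296, 435 and 1185 in DH-LMP2A. Whether these pairs match in sex composition is not known. In bulk RNA of this kind, fewer cells of a type and less RNA per cell cannot be told apart. Nothing states that the libraries of a genotype share no mice or preparation, so p-values measure the spread between these libraries.

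All 10 genes passed the filter on low counts, with at least 54 counts in each library. Per kilobase of exon (RPKM), Nrp1 was the most abundant in WT at 436 ± 80.2 RPKM (SD, n = 5), followed by Vegfa at 401 ± 117 and Kdr at 244 ± 56.4. Tek (134 ± 35.9 RPKM), Tie1 (83.0 ± 12.8), Flt1 (51.9 ± 9.82) and Angpt2 (31.9 ± 8.57) lay in the middle of the order, and Pgf (9.63 ± 2.09), Vegfc (4.36 ± 1.03) and Angpt1 (1.36 ± 0.36) at its low end. Neighbours in this order overlapped between WT libraries from Nrp1 to Kdr and from Tek to Angpt2, while Kdr and Tek, Angpt2 and Pgf, Pgf and Vegfc, and Vegfc and Angpt1 did not overlap. The order was the same in LCDD except that Angpt2 (57.7 ± 17.8 RPKM, n = 4) stood above Flt1 (36.7 ± 20.3). In DH-LMP2A it differed from WT in that Vegfa (437 ± 169 RPKM, n = 4) stood above Nrp1 (247 ± 41.1). The place of Flt1 depends on its deposited exon length of 13504 bases, against 3690 for Angpt2. By mean CPM Flt1 stood above Angpt2 in LCDD (495 and 213) and above Tek and Tie1 in WT (700, 629 and 408).

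**Figure D1:**
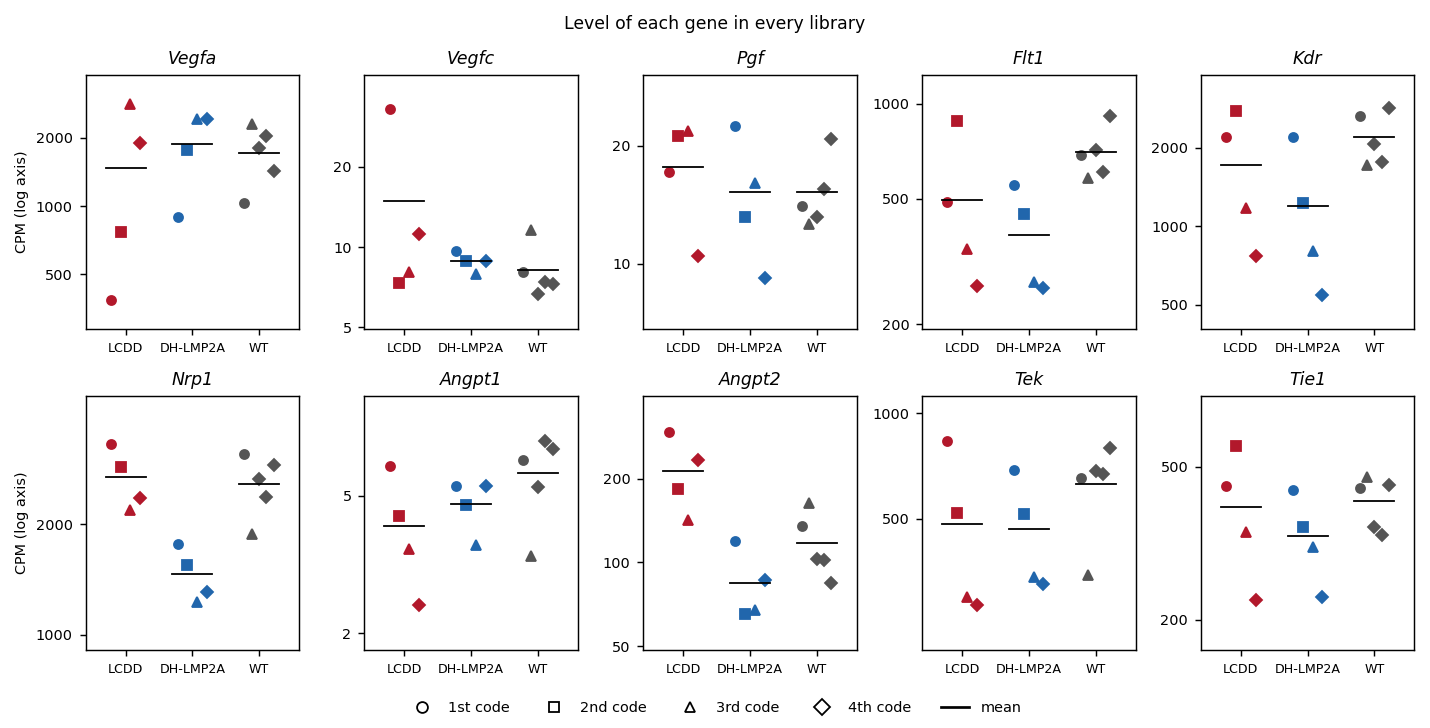
Level of each of the 10 genes in every library, in CPM on a log axis, by genotype; symbols mark the title code, 1st to 4th in ascending order, and the horizontal line is the mean. Angpt2 and Nrp1 separate LCDD from DH-LMP2A without overlap, and Vegfa is lowest in the 1st code of every genotype.

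LCDD was compared with DH-LMP2A first, because every title code holds 1 library of each. Angpt2 rose in LCDD and Nrp1 stood above DH-LMP2A in every library, while none of the other 8 genes passed the test. The edgeR quasi-likelihood test called 1 of the 10 genes at an adjusted p under 0.05, against 2.00% of the 16738 genes tested (1.30% as higher). With the title code as a block it called 2 of 10, Angpt2 and Nrp1, against 6.10% of all genes (3.24% as higher). Without the block the log2 fold change was positive for 8 of 10 genes and its median was 0.31, against -0.01 over all genes. With the block it was positive for 7 of 10 with a median of 0.26.

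Angpt2 (chromosome 8, 18690263 to 18741562 on GRCm38, minus strand) encodes angiopoietin-2. It stood at 294, 183, 142 and 234 CPM in LCDD replicates 1 to 4, at 119, 65.2, 67.2 and 86.6 CPM in DH-LMP2A replicates 1 to 4, and at 135, 164, 103, 102 and 84.4 CPM in WT replicates 1 to 5. All 4 LCDD libraries lay above all 4 DH-LMP2A libraries, as was so for 4.74% of the genes tested, or 7.62% in either direction; the lowest LCDD library lay below WT replicate 2. Against DH-LMP2A the log2 fold change was 1.33 ± 0.27 (SE), a 2.52-fold difference of the group estimates (edgeR adjusted p = 0.0249). Within title codes the difference in log2 CPM was positive in 4 of 4 pairs and ran from 1.07 to 1.49. Against WT the log2 fold change was 0.86 ± 0.25 (edgeR adjusted p = 0.124) and did not pass.

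The call of Angpt2 against DH-LMP2A sat close to the threshold. In edgeR it was lost without LCDD replicate 1 (log2 fold change 1.14, adjusted p = 0.0715), LCDD replicate 2 (1.37, 0.0553), LCDD replicate 4 (1.29, 0.0596), DH-LMP2A replicate 2 (1.23, 0.106), DH-LMP2A replicate 3 (1.24, 0.0919) or DH-LMP2A replicate 4 (1.34, 0.0832). Its estimate stayed between 1.14 and 1.55 in all 29 alternatives, of which 19 called it, with adjusted p from 0.000451 to 0.274. Angpt2 lies within the span of Mcph1 on the opposite strand and shares 0 exon bases with it, and Mcph1 had 58 to 170 counts per library against at least 1177 for Angpt2. The exons of Nrp1 share 80 bases with Mir1903 and those of Angpt1 283 bases with Gm17473, which held 0 and at most 1 count.

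Nrp1 (chromosome 8, 128359073 to 128505462, plus strand) stood at 3308, 2865, 2179 and 2359 CPM in LCDD replicates 1 to 4, at 1765, 1546, 1225 and 1312 CPM in DH-LMP2A replicates 1 to 4, and at 3093, 1879, 2658, 2370.0 and 2887 CPM in WT replicates 1 to 5. DH-LMP2A stood apart as the low group: its highest library lay below the lowest LCDD and the lowest WT library. Of all genes tested, 4.74% lay higher in LCDD than in DH-LMP2A without overlap, and 2.33% lower in DH-LMP2A than in WT. The share of genes with both was not counted. The log2 fold change of LCDD against DH-LMP2A was 0.87 ± 0.22 (edgeR adjusted p = 0.0610), and with the title code as a block 0.87 ± 0.13 (adjusted p = 0.00625), which passes. Without the block it also passed when LCDD replicate 3 (0.96, adjusted p = 0.0498) or DH-LMP2A replicate 1 (0.98, adjusted p = 0.0446) was left out, and over the 29 alternatives adjusted p ran from 0.00152 to 0.191 with 7 calls. Within title codes the difference was 0.83 to 0.91 in 4 of 4 pairs, the narrowest range of the 10 genes. LCDD and WT overlapped, with a log2 fold change of 0.06 ± 0.20 (edgeR adjusted p = 0.973).

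**Figure D2:**
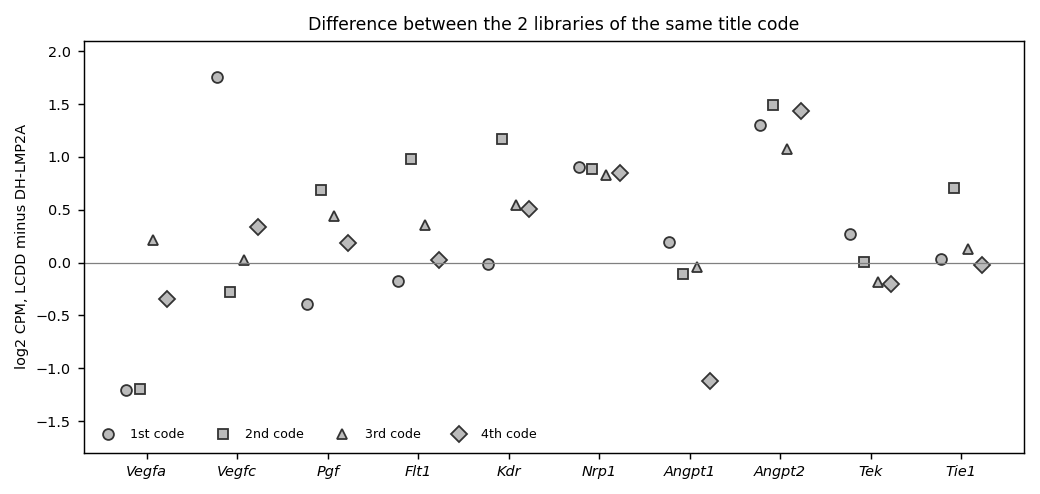
Difference in log2 CPM between the LCDD and the DH-LMP2A library of the same title code, 4 points per gene, with symbols for the codes. All 4 points of Nrp1 (0.83 to 0.91) and of Angpt2 (1.07 to 1.49) lie above 0, while those of Vegfa run from -1.21 to 0.22.

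DH-LMP2A was compared with WT next. The VEGF receptors Flt1 and Kdr and the co-receptor Nrp1 were the genes with the largest negative estimates. Without a further term in the edgeR fit none of them passed; all 3 passed with the title code as a block, with the tubule marker mean as a covariate (adjusted p = 0.0414 for Flt1, 0.0304 for Kdr and 0.0116 for Nrp1) and with the podocyte marker mean as a covariate (0.0448, 0.0391 and 0.00374). Without the block edgeR called 0 of 10 genes, with 2 at an unadjusted p under 0.05 (Nrp1 and Flt1), against 0.627% of all genes called, and DESeq2 called Nrp1. With the block edgeR called 3 of 10, all lower in DH-LMP2A, against 3.36% of all genes (1.58% as lower). With the tubule or the podocyte covariate it called 736 or 817 of all 16738 genes, against 105 without a further term. When Ddx3y or the endothelial marker mean was added to the block as a covariate, none of the 10 genes was called. Those fits called 3 and 17 of all genes. Without the block the estimate was negative for 8 of 10 genes, with a median of -0.37 against 0.00 over all genes. The comparison shares its DH-LMP2A libraries with the one against LCDD, so the values of Nrp1 in both rest on the same 4 low libraries.

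Flt1 (chromosome 5, 147561604 to 147726011, minus strand) stood at 551, 446, 272 and 260.5 CPM in DH-LMP2A replicates 1 to 4, at 686, 579.6, 715, 605 and 916 CPM in WT replicates 1 to 5, and at 487, 883, 348 and 264 CPM in LCDD replicates 1 to 4. Every DH-LMP2A library lay below every WT library, which held for 2.33% of genes, or 4.97% in either direction, and LCDD spanned both. Against WT its log2 fold change was -0.87 ± 0.34 (edgeR adjusted p = 0.307), and -1.21 ± 0.26 with the block (adjusted p = 0.0395). LCDD against WT gave -0.50 ± 0.33 (edgeR adjusted p = 0.655).

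Kdr (chromosome 5, 75932827 to 75978458, minus strand), on the same chromosome as Flt1, stood at 2203, 1229, 805 and 542 CPM in DH-LMP2A replicates 1 to 4, at 2641, 1716, 2065, 1758 and 2828 CPM in WT replicates 1 to 5, and at 2189, 2758, 1176 and 769 CPM in LCDD replicates 1 to 4. DH-LMP2A replicate 1 reached into the WT range and the other 3 lay below it. The log2 fold change against WT was -0.88 ± 0.43 (edgeR adjusted p = 0.428), and -1.40 ± 0.33 with the block (adjusted p = 0.0493). Against LCDD the DH-LMP2A libraries overlapped, and LCDD minus DH-LMP2A was 0.53 ± 0.45 (edgeR adjusted p = 0.686).

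Nrp1 was lower in DH-LMP2A than in WT by a log2 fold change of -0.82 ± 0.21 (edgeR adjusted p = 0.113). The block moved it to -0.86 ± 0.14 (adjusted p = 0.0162). Over the 29 alternatives Nrp1 was called in 5 (adjusted p from 0.00214 to 0.671), Flt1 in 3 (0.0395 to 0.937) and Kdr in 3 (0.0304 to 0.991), and in none of the 13 fits that left out 1 library. Within the 3 title codes that hold both genotypes, DH-LMP2A minus WT was negative in 3 of 3 for each of Flt1 (-1.5 to -0.32), Kdr (-2.0 to -0.26) and Nrp1 (-1.0 to -0.62). For all 3 genes the largest difference lay in the fourth code, whose WT libraries held 1 mouse each. The smallest differences of Flt1 and Kdr lay in the first code. Without the 3 single-mouse WT libraries edgeR called none of the 10 genes in this comparison. The endothelial marker mean moved with these genes: its 4 DH-LMP2A libraries ran from 7.86 to 8.69 log2 CPM and the WT libraries from 8.50 to 8.87. With that mean as a covariate edgeR called 0 of the 10 genes, and the estimates were -0.19 for Flt1, -0.01 for Kdr and -0.54 for Nrp1.

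**Figure D3:**
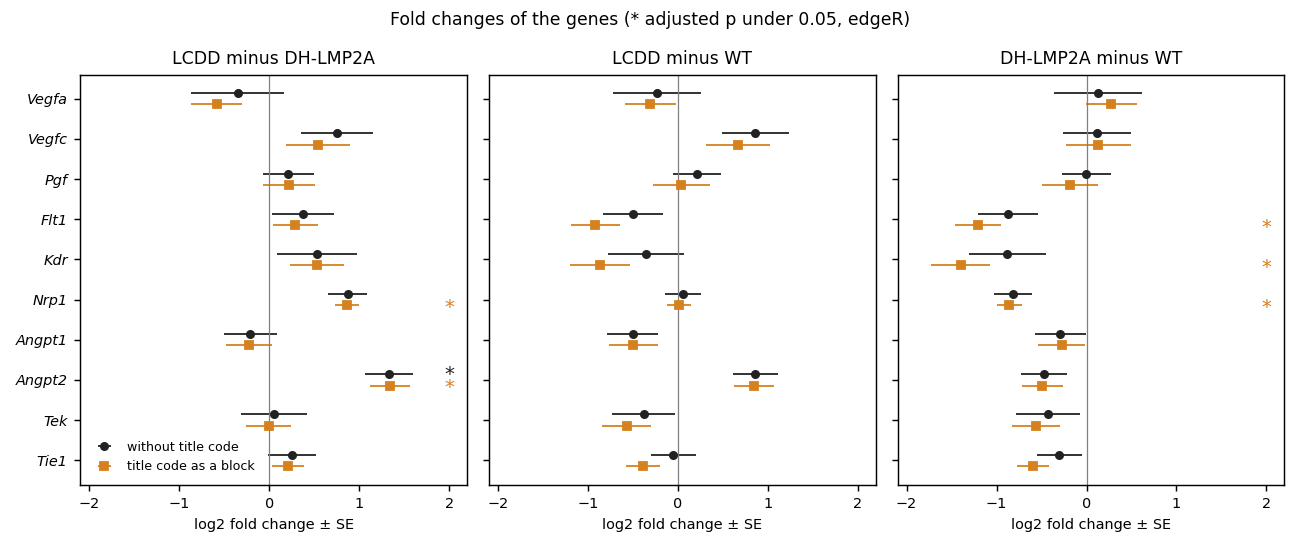
Log2 fold change ± SE of the 10 genes in the 3 comparisons, without the title code (black circles) and with it as a block (orange squares); asterisks mark an edgeR adjusted p under 0.05. Angpt2 is marked in both fits of LCDD minus DH-LMP2A, Nrp1 only with the block, and Flt1, Kdr and Nrp1 only with the block in DH-LMP2A minus WT.

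The bases before the start of the receptor genes are shown because Flt1, Kdr and Nrp1 were lower together in DH-LMP2A with the block, with Vegfa, which showed no such difference, beside them. Each line gives the 250 bases upstream of the RefSeq start (GRCm38.p6), 5′ to 3′ on the strand of the gene. Capitals mark GGAAG or its reverse complement CTTCC, the core bound by ETS family factors, a family that includes regulators of endothelial genes.
Flt1 (chr5:147726012-147726261, minus strand): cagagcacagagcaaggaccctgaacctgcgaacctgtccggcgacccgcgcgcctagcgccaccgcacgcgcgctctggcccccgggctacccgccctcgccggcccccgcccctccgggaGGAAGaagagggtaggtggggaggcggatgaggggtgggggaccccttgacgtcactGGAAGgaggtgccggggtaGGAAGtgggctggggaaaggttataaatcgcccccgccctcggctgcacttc
Kdr (chr5:75978456-75978705, minus strand): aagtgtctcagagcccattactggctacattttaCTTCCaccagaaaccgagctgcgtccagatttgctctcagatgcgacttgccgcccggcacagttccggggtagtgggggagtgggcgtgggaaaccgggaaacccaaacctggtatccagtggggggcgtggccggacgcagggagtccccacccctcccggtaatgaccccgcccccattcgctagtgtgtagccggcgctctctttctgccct
Nrp1 (chr8:128358823-128359072, plus strand): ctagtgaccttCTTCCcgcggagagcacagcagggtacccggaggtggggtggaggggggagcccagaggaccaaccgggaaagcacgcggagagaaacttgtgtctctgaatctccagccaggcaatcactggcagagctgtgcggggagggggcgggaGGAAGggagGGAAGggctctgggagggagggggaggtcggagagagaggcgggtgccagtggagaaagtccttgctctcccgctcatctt
Vegfa (chr17:46032378-46032627, minus strand): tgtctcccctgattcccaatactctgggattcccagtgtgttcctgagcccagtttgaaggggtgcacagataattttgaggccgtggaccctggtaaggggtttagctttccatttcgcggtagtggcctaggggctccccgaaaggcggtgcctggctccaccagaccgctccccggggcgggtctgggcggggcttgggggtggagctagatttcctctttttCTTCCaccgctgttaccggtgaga
The motif occurred 3 times in the Flt1 window, 1 time in Kdr, 3 times in Nrp1 and 1 time in Vegfa. It was present in 5 of the 8 genes matched in the promoter table and in 63.7% of 27025 promoters of that length. ACGTG, the core of the hypoxia response element, was in 0 of 8 windows against 16.5% of all promoters, and GGGCGG, the GC box, in 6 of 8 against 33.0%; both strands were searched for each. A match here describes letters in a window, not a bound site. A missing match covers only these 250 bases and says nothing about sequence outside them. The last 3 bases of the Kdr window lie in an exon of the deposited table, as do 212 of the 250 bases of the window of Tie1, which is 1 of the 5 genes with a match.

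Among the ligands, Vegfa (chromosome 17, 46016993 to 46032377, minus strand) varied most between libraries and did not separate the genotypes. It stood at 387, 772, 2815 and 1905 CPM in LCDD replicates 1 to 4, at 895, 1768, 2423 and 2421 CPM in DH-LMP2A replicates 1 to 4, and at 1032, 2302, 1807, 2047 and 1421 CPM in WT replicates 1 to 5. The highest LCDD library held 7.27 times the level of the lowest, and the 3 genotypes overlapped. The log2 fold change was -0.35 ± 0.52 against DH-LMP2A (edgeR adjusted p = 0.834) and -0.23 ± 0.49 against WT (adjusted p = 0.943).

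Vegfa also differed between title codes. With genotype in the fit, the edgeR test of the code called Vegfa (adjusted p = 0.0214) and none of the other 9, a smaller share than the 18.6% of all genes that it called. Flt1, Kdr, Nrp1, Tek and Tie1 had unadjusted p from 0.0121 to 0.0213 and adjusted p from 0.0589 to 0.0817 in the same edgeR test. Libraries of the first code averaged 771 CPM (387 to 1032) and those of the third averaged 2513 CPM (2302 to 2815), and in every genotype the library of the first code was the lowest. The call was lost without DH-LMP2A replicate 1 (adjusted p = 0.0551) or WT replicate 3 (adjusted p = 0.0511), and without WT replicate 1 the test called 5 of the 10 genes (Vegfa, Flt1, Kdr, Tek and Tie1). Without the 3 libraries of the first code, edgeR called Angpt2 against DH-LMP2A and no other of the 10 genes in any of the 3 comparisons.

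Vegfa followed the podocyte markers across libraries. Its log2 CPM correlated with their mean at r = 0.95 (permutation test, p = 2e-05, Benjamini-Hochberg p = 0.000267 over 40 relations; Spearman rho = 0.764, permutation p = 0.0033) over 13 libraries. Without LCDD replicates 1 and 2, the lowest in podocyte markers, r was 0.844, and after removing genotype and title code means it was 0.906. The podocyte marker mean was 8.29, 9.14, 10.56 and 10.30 log2 CPM in LCDD replicates 1 to 4, 9.6 to 10.63 in DH-LMP2A and 9.53 to 10.84 in WT. Counts of a library share its depth and its mix of cells, so the relation is a description. The permutations for all 40 relations shuffled the 13 libraries freely, without regard to genotype or title code. Libraries sharing a code deviate together, so these p-values may be too small.

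Vegfc and Pgf were scarce. Vegfc (chromosome 8, 54077532 to 54186454, plus strand), a ligand best known for lymphatic vessels, stood at 32.8, 7.34, 8.08 and 11.2 CPM in LCDD replicates 1 to 4, at 7.94 to 9.65 CPM in DH-LMP2A and at 6.65 to 11.6 CPM in WT. The LCDD mean of 14.9 ± 12.1 CPM (SD, n = 4) rests on replicate 1, with the other 3 inside the range of the WT libraries. LCDD gave 0.75 ± 0.40 against DH-LMP2A (edgeR adjusted p = 0.467) and 0.86 ± 0.38 against WT (adjusted p = 0.370). Pgf (chromosome 12, 85166639 to 85177296, minus strand), the FLT1 ligand placental growth factor, ran from 10.5 to 21.9 CPM in LCDD, 9.18 to 22.5 in DH-LMP2A and 12.6 to 20.8 in WT. Its ranges overlapped, and LCDD gave 0.21 ± 0.28 against DH-LMP2A and 0.21 ± 0.27 against WT.

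Angpt1 (chromosome 15, 42424727 to 42676977, minus strand), the activating ligand of TEK, was the least abundant of the 10. It stood at 6.10, 4.37, 3.50 and 2.41 CPM in LCDD replicates 1 to 4, at 5.31, 4.70, 3.6 and 5.33 CPM in DH-LMP2A replicates 1 to 4 and at 6.34, 3.34, 5.29, 7.20 and 6.81 CPM in WT replicates 1 to 5. LCDD replicate 4 lay below the WT range, and the other LCDD libraries and all 4 DH-LMP2A libraries lay inside it. LCDD gave a log2 fold change of -0.21 ± 0.30 against DH-LMP2A (edgeR adjusted p = 0.827) and -0.50 ± 0.28 against WT (adjusted p = 0.561). These values rest on 54 to 196 counts per library.

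The ratio of the angiopoietins, taken per library from RPKM, joined the 2 genes. Angpt2 exceeded Angpt1 by 55.6, 48.4, 46.6 and 112-fold in LCDD replicates 1 to 4, by 25.9, 16.0, 21.6 and 18.8-fold in DH-LMP2A replicates 1 to 4, and by 24.6, 56.6, 22.5, 16.3 and 14.3-fold in WT replicates 1 to 5. LCDD lay above DH-LMP2A in every library, and WT replicate 2 reached into the LCDD range. On the log2 scale the ratio averaged 5.94 ± 0.59 (SD, n = 4) in LCDD, 4.34 ± 0.30 (n = 4) in DH-LMP2A and 4.56 ± 0.78 (n = 5) in WT. It uses the same Angpt2 counts as the test above and adds no independent support.

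The other ratios did not separate the genotypes. The log2 ratio of Flt1 to Kdr averaged -2.36 ± 0.27 (SD, n = 4) in LCDD, -2.1 ± 0.39 (n = 4) in DH-LMP2A and -2.22 ± 0.17 (n = 5) in WT, so Kdr stood above its possible decoy in every library. The log2 ratio of Vegfa to Kdr ran from -1.43 to 2.38 in LCDD, -0.23 to 3.23 in DH-LMP2A and -0.28 to 1.5 in WT. Per length, Vegfc reached at most 0.194 and Pgf at most 0.12 of the Vegfa level, both in LCDD replicate 1.

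**Figure D4:**
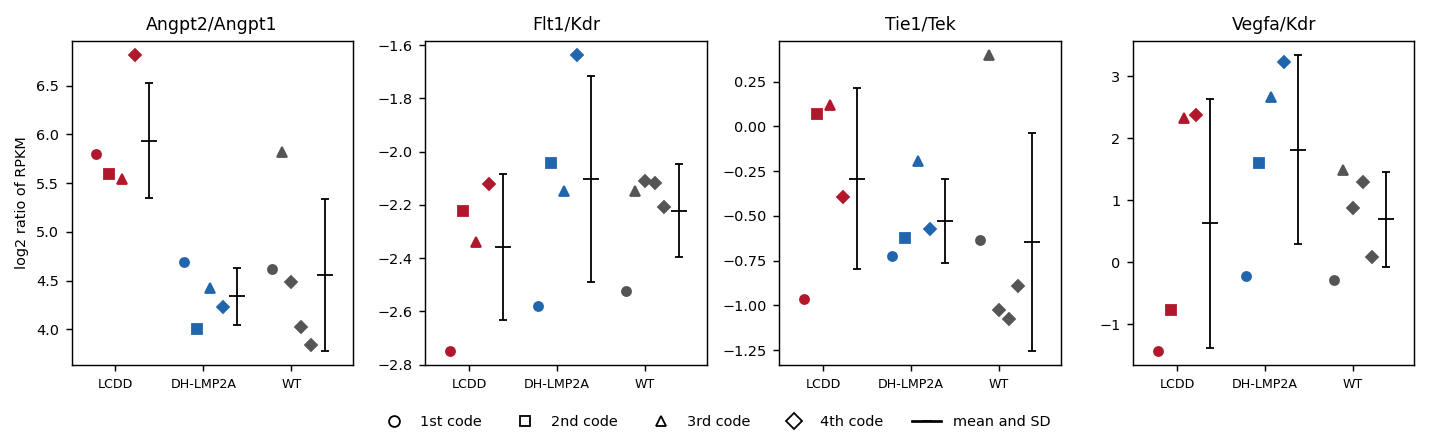
Log2 ratio of RPKM between pairs of genes in every library by genotype, with mean and SD to the right of the points and symbols for the title code. Angpt2/Angpt1 is higher in all 4 LCDD libraries (5.54 to 6.81) than in all 4 DH-LMP2A libraries (4.00 to 4.69); the other 3 ratios overlap between genotypes.

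Of the Tie receptors, neither passed the test in any comparison. Tek (chromosome 4, 94739289 to 94874976, plus strand) stood at 832, 518, 299 and 283 CPM in LCDD replicates 1 to 4, at 689, 516, 339 and 326 CPM in DH-LMP2A replicates 1 to 4 and at 654, 344, 682, 670.4 and 797 CPM in WT replicates 1 to 5. Replicates 3 and 4 were low and replicates 1 and 2 high in both LCDD and DH-LMP2A, and WT replicate 2 was low among WT. LCDD minus DH-LMP2A was 0.05 ± 0.37 (edgeR adjusted p = 0.973). Tie1 (chromosome 4, 118471191 to 118490061, minus strand) ran from 225 to 568 CPM in LCDD, 229 to 435 in DH-LMP2A and 332 to 472 in WT, with overlap throughout. Its log2 fold change was 0.25 ± 0.26 for LCDD against DH-LMP2A (edgeR adjusted p = 0.753) and -0.30 ± 0.25 for DH-LMP2A against WT (adjusted p = 0.654).

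LCDD against WT gave no call. edgeR called 0 of the 10 genes without and with the block, against 1.84% and 3.20% of all genes, and DESeq2 called 0. At an unadjusted p under 0.05 there were 2 without the block, Angpt2 and Vegfc, and 3 with it, Angpt2, Flt1 and Kdr. With the block the estimate was -0.92 ± 0.27 for Flt1 (edgeR adjusted p = 0.100) and -0.87 ± 0.33 for Kdr (adjusted p = 0.208). Within the 3 title codes that hold both genotypes, LCDD minus WT was negative in 3 of 3 for Flt1 (-1.47 to -0.49) and for Kdr (-1.5 to -0.27). For both genes the largest difference lay in the fourth code, whose WT libraries held 1 mouse each. The LCDD and DH-LMP2A libraries overlapped for both genes. Without the block the estimate was negative for 6 of 10 genes, with a median of -0.14 against 0.01 over all genes. With the block the median was -0.35, also against 0.01. No gene of the 10 separated LCDD from WT without overlap, against 4.59% of all genes, and this comparison shares its libraries with the other comparisons of LCDD and WT.

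The receptors followed the endothelial markers across libraries. Kdr correlated with the endothelial marker mean at r = 0.972 (permutation test, p = 1e-05, the smallest the permutations can give; Benjamini-Hochberg p = 0.000267; rho = 0.956, permutation p = 1e-05). Without DH-LMP2A replicate 4 and LCDD replicate 4 the r of Kdr was 0.948, and with genotype and code means removed it was 0.974. Tie1 gave r = 0.905 (permutation p = 2e-05, Benjamini-Hochberg p = 0.000267; rho = 0.918, permutation p = 5e-05), and Flt1 r = 0.873 (permutation p = 0.00014, Benjamini-Hochberg p = 0.0014; rho = 0.841, permutation p = 0.00056). Without the same 2 libraries r was 0.85 for Tie1 and 0.802 for Flt1.

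Nrp1, Tek and Angpt2 were read against the same markers. Nrp1 gave r = 0.782 (permutation p = 0.00195, Benjamini-Hochberg p = 0.0156; rho = 0.747, permutation p = 0.00498), 0.832 without the 2 libraries and 0.665 with genotype and code means removed. Tek gave r = 0.715 (permutation p = 0.00754, Benjamini-Hochberg p = 0.0503; rho = 0.742, permutation p = 0.00526) and 0.598 without the 2 libraries. Angpt2 gave r = 0.40 (permutation p = 0.173, Benjamini-Hochberg p = 0.346; rho = 0.346, permutation p = 0.243), 0.654 without the 2 libraries and -0.184 with genotype and code means removed. Whether r differs between any of these genes was not tested. Of the other relations among the 40, Vegfa with the endothelial mean gave r = -0.679 (permutation p = 0.0104, Benjamini-Hochberg p = 0.0578; rho = -0.758, permutation p = 0.00404, Benjamini-Hochberg p = 0.0301), and -0.697 without the 2 libraries. With the mesangial and mural mean, Nrp1 gave r = -0.67 (permutation p = 0.013, Benjamini-Hochberg p = 0.0578; rho = -0.709, permutation p = 0.00911, Benjamini-Hochberg p = 0.0456) and Angpt2 r = -0.667 (permutation p = 0.0124, Benjamini-Hochberg p = 0.0578; rho = -0.615, permutation p = 0.0282, Benjamini-Hochberg p = 0.125). Without LCDD replicate 4 and DH-LMP2A replicate 2 these were -0.759 and -0.467, and with genotype and code means removed -0.119 and -0.152. Members of that list moved in opposite directions between LCDD and DH-LMP2A, and Serpine2 among them correlated with Angpt2 at r = 0.948. Pgf with the endothelial mean gave r = 0.663 (permutation p = 0.0146, Benjamini-Hochberg p = 0.0584), and 0.338 without DH-LMP2A replicate 4 and LCDD replicate 4. With the endothelial marker mean as a covariate, the log2 fold change of Angpt2 in LCDD against DH-LMP2A was 1.21 (edgeR adjusted p = 0.0685), and with the podocyte mean and the block together 1.23 (adjusted p = 0.274).

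**Figure D5:**
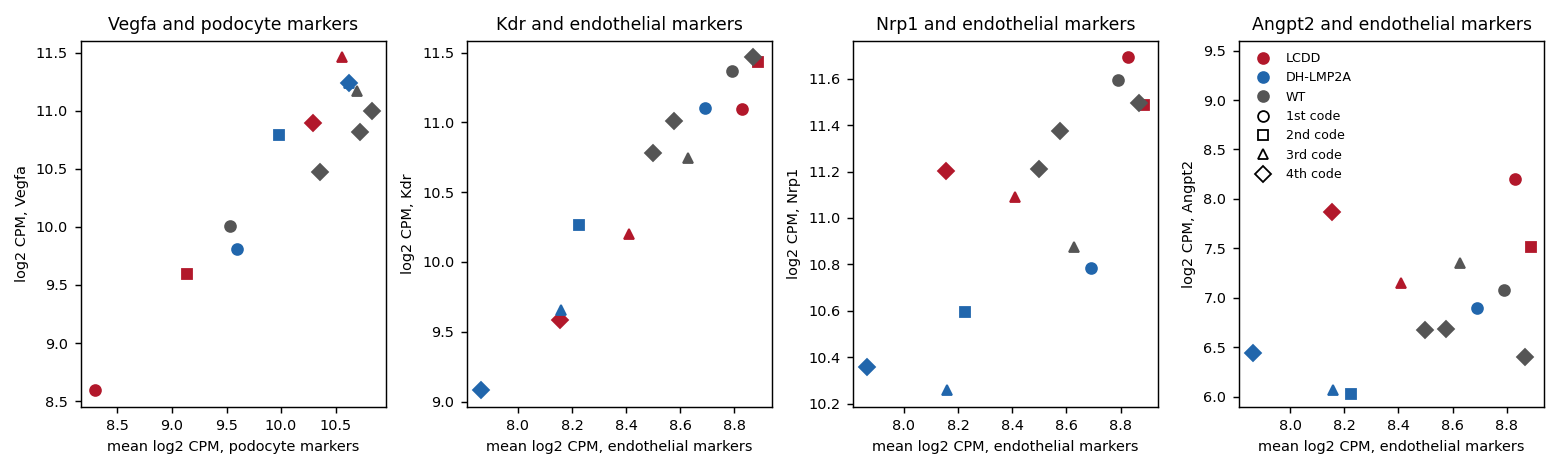
Log2 CPM of Vegfa against the mean of 10 podocyte markers, and of Kdr, Nrp1 and Angpt2 against the mean of 12 endothelial markers, 1 point per library, coloured by genotype with symbols for the title code. Vegfa (r = 0.95) and Kdr (r = 0.972) lie along a line through all 3 genotypes, while the LCDD libraries lie above the DH-LMP2A libraries in the Nrp1 and Angpt2 panels.

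Markers of other cell types stood beside these values as follows. In LCDD against DH-LMP2A, 10 of 12 endothelial markers had positive estimates (median 0.49) and 0 were called, 0 of 10 podocyte markers were positive (median -0.45) and 0 were called, and 1 of 10 mesangial and mural markers was called, with a median of -0.17. Members of the mesangial and mural list lay far apart. Serpine2 rose (1.29 ± 0.30, edgeR adjusted p = 0.0446), and Itga8, an integrin chain of mesangial cells, stood above DH-LMP2A in every library (0.88 ± 0.25, adjusted p = 0.102). Ren1, which encodes renin (-1.87 ± 0.47, edgeR adjusted p = 0.0631), and the pericyte marker Rgs5 (-1.18 ± 0.31, adjusted p = 0.0787) stood below it in every library, while Des and Gata3 had estimates of 0.52 and 0.49 and Myh11 and Acta2 of -1.31 and -0.71. Over all genes, 7.62% separated these 2 genotypes without overlap in either direction. With the block Serpine2 and Itga8 were called higher and Myh11, Rgs5 and Ren1 lower. The 10 markers summed to 4130 to 6871 CPM in LCDD, 3437 to 3955 CPM in DH-LMP2A and 3424 to 4164 CPM in WT. Tubule markers had a median of -0.78 with 0 of 10 called, leukocyte markers 0.46 with 0 of 8 called, and lymphatic endothelial markers -0.49 with 0 of 3 called. The last were Prox1, Lyve1 and Pdpn. Their sum was lowest in LCDD replicate 1 (27.05 CPM), as was that of the podocyte markers (7320 CPM), and which cells they came from was not tested. Of 5 cell cycle genes 4 (Mki67, Top2a, Ccnb1 and Cdk1) were higher in LCDD than in DH-LMP2A (median 2.49) and than in WT (median 2.31). In DH-LMP2A against WT the endothelial median was -0.40 with 0 of 12 called, and with the block -0.57 with 1 called, Cdh5 (-1.19, edgeR adjusted p = 0.0341), beside Pecam1 (-1.10, adjusted p = 0.0529) and Erg (-0.95, adjusted p = 0.0541). Without the block the tubule median was 0.92 with 1 of 10 called, Kap. Kap is also part of the tubule covariate, and genotype and sex composition cannot be told apart in this comparison. Their part in the values of Angpt2, Nrp1, Flt1 and Kdr was not tested beyond the covariate fits.

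Other genes of the axis were read in 5 lists holding 68 symbols, 67 of them tested; the remaining symbol, Vegfd, is a second name of the listed Figf. In LCDD against DH-LMP2A edgeR called 5 of 67, or 7.46%, of which 4 rose and 1 fell, against 2.00% of all genes (1.30% as higher). Of the other ligands and receptors 2 of 13 rose and 10 had positive estimates (median 0.45). Nrp2, the second neuropilin and a co-receptor for VEGF-C, had 137 ± 33.3 CPM in LCDD and 57.4 ± 14.9 CPM in DH-LMP2A (SD, n = 4 each), a log2 fold change of 1.25 ± 0.21 (edgeR adjusted p = 0.0102), with no overlap. Over all genes, 4.74% lay higher in LCDD without overlap. The call of Nrp2 held in each of the 13 fits that left out 1 library. Angpt4, a further angiopoietin, had 7.13 ± 2.91 and 2.61 ± 0.46 CPM, a log2 fold change of 1.45 ± 0.27 (edgeR adjusted p = 0.0160), and lost its call without DH-LMP2A replicate 2 (1.40, adjusted p = 0.0711), replicate 3 (1.42, 0.0620) or replicate 4 (1.40, 0.0646).

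The remaining calls lay in the lists of responsive, inhibitory and hypoxia genes. Adamts1, a secreted protease listed both as a VEGF-responsive gene and as an angiogenesis inhibitor, had 705 ± 292 CPM in LCDD against 289 ± 30.5 in DH-LMP2A (log2 fold change 1.28 ± 0.26, edgeR adjusted p = 0.0276) and 322 ± 65.2 in WT (1.13 ± 0.25, adjusted p = 0.0342). Spry4, a feedback inhibitor of receptor tyrosine kinase signalling, had 131 ± 16.0 against 82.9 ± 7.35 CPM in DH-LMP2A (0.66 ± 0.15, edgeR adjusted p = 0.0427). Egln3, a prolyl hydroxylase that marks hypoxia-inducible factors for destruction and is itself induced by hypoxia, fell to 6.31 ± 2.03 CPM from 22 ± 9.14 in DH-LMP2A (-1.8 ± 0.39, adjusted p = 0.0356) and 19.6 ± 8.08 in WT (-1.63 ± 0.38, adjusted p = 0.0472). Against DH-LMP2A, the call of Adamts1 was lost without LCDD replicate 1 or 2 or DH-LMP2A replicate 2, 3 or 4 (1.0 to 1.32, edgeR adjusted p from 0.0626 to 0.0984). Those of Spry4 (0.60 to 0.68, adjusted p from 0.0599 to 0.15) and Egln3 (-1.91 to -1.60, adjusted p from 0.0509 to 0.113) were lost without LCDD replicate 1, 2 or 4, DH-LMP2A replicate 2, 3 or 4 or WT replicate 5, and further without WT replicate 3 for Spry4 and WT replicate 4 for Egln3. Against WT, leaving out 1 library ended the call of Adamts1 in 9 of 13 fits (0.84 to 1.18, edgeR adjusted p from 0.0516 to 0.111; it held without LCDD replicate 3, DH-LMP2A replicate 1 or WT replicate 1 or 2). It ended that of Egln3 in 11 of 13 (-1.76 to -1.37, adjusted p from 0.0594 to 0.141; it held without DH-LMP2A replicate 1 or WT replicate 1).

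No test of a list as a whole was run. Medians for LCDD against DH-LMP2A were 0.18 for 19 genes of VEGF and Tie signalling (0 called; Shc1 0.32 ± 0.12 and Prkca 0.39 ± 0.16 had the smallest p), 0.47 for 12 VEGF-responsive genes (Adamts1 called), -0.01 for 13 genes of hypoxia sensing (Egln3 called) and 0.24 for 11 inhibitors and matrix regulators (Adamts1 and Spry4 called), against -0.01 over all genes. LCDD against WT called 2 of 67, or 2.99% against 1.84% of all genes, which are Adamts1 and Egln3. Of the other listed genes, the smallest p belonged to Spry4 (0.55 ± 0.14, edgeR adjusted p = 0.0741), Nrp2 (0.65 ± 0.20, adjusted p = 0.144) and Angpt4 (0.78 ± 0.25, adjusted p = 0.159). Aplnr, a VEGF-responsive gene, came next and was lower in LCDD, with overlap between libraries (edgeR adjusted p = 0.1666). DESeq2 called Aplnr (log2 fold change -2.14, adjusted p = 0.0252). DH-LMP2A against WT called 0 of 67 without the block, against 0.627% of all genes. With it 4 were called, or 5.97% against 3.36% of all genes (1.58% as lower), and all were lower: Flt4, Foxo1, Klf4 and Ephb4. Of the genes with the smallest p in their list, Src (0.47 ± 0.15), Nrp2 (-0.60 ± 0.20) and Plxna2 (-0.55 ± 0.19) had edgeR adjusted p from 0.198 to 0.249 in that comparison. Flt4 is the VEGF-C receptor of lymphatic endothelium, and Foxo1 encodes a transcription factor that induces Angpt2 when TEK signalling is low.

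Genes with the most similar pattern over the 13 libraries were sought among the 10960 genes that averaged 5 CPM or more. Vegfa was matched by Col4a5 (r = 0.994, rho = 0.945), a type IV collagen chain of the glomerular basement membrane, Dctd (0.993) and Disp1 (0.985). Kdr was matched by Gimap6 (0.984), Cdh5 (0.982), the endothelial cadherin, and Ppap2a (0.975), and Flt1 by Phlpp1 (0.967), Cdh5 (0.962) and Arhgap31 (0.949). Tie1 was matched by Kif26a (0.98), Gja4 (0.964) and Notch4 (0.962), Tek by Rdx (0.969), Rfk (0.959) and Mest (0.951), and Nrp1 by F8 (0.946), Gnb4 (0.932) and Pip4k2a (0.921).

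Angpt2 was matched by Serpine2 (r = 0.948, rho = 0.934), a serine protease inhibitor of the mesangium, Cnn2 (0.947) and Plac9a (0.945). The scarce genes had looser matches: Vegfc with Edn1 (0.898), Wdr1 (0.882) and Rpl22l1 (0.867), Pgf with Zfp212 (0.879), Ppm1m (0.845) and Gimap5 (0.842), and Angpt1 with Pramef8 (0.862), Ufm1 (0.86) and Cd109 (0.854). The r of Vegfc rests in part on LCDD replicate 1, and its Spearman rho with Edn1, the vasoconstrictor endothelin-1, was 0.665. These correlations share library, depth and cell content and were picked as the highest of many, so they are descriptions.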

How the data were processed

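Raw read counts per gene were deposited by the authors as 1 table of whole numbers, with 13 count columns matching the titles and 0 columns left over. Per the submitters' processing notes, the tools were STAR 2.4.0a, featureCounts of Subread 1.5.0-p3 and DESeq2, with the builds mm10 and GRCm38; the strand setting, the handling of multi-mapping reads and the gene annotation are not given in the sources used here.

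edgeR 4.0.16 in R 4.3.3 was run on all 13 libraries with TMM factors, filterByExpr (minimum count 10) and 1 coefficient per genotype in a quasi-likelihood fit. The filter kept 16738 genes, which hold 99.93% or more of each library's counts, and dropped 30220. P-values were adjusted by Benjamini-Hochberg over all genes tested and called under 0.05. The SE of a log2 fold change was taken as its size over the root of the F statistic. Log2 CPM uses a prior count of 2, and RPKM divides CPM by the deposited exon length. The scripts were tested on simulated counts.

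Alternatives were DESeq2 1.42.0, RLE factors, no filter, a mean of at least 5 CPM, only the genotypes compared, the title code as a block, a minimum absolute log2 fold change of 1, marker or Ddx3y covariates, and leaving out each replicate or the single-mouse WT libraries. Correlations with marker means, the fits of a covariate with the block, and those without the libraries of the first code were chosen after seeing the data. Replicate numbers follow deposition order; the code in the titles was used for pairing, and after subtracting genotype means, libraries sharing a code correlated at 0.127 to 0.593 in all 10 pairs. The 10 genes and all lists were chosen with earlier results of these data known. All 10 genes are named, with each listed gene that was called, the smallest p of each list otherwise, and the 3 most correlated genes of each of the 10, leaving out predicted genes. Promoter sequences are from RefSeq on GRCm38.p6 and matched 8 of the 10 genes; Angpt1 and Angpt2 were not matched. Proteins were not used here.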

Additional observations from a re-analysis of the deposited data

Results flagged for a closer look

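Among 69 groups of 4 or 5 values checked for a library far from the others, 2 held such a library, where chance gives about 1 in 20, or 3.5. The log2 CPM of Tek in WT replicate 2, a pool of 3 mice, was 8.43, below the other 4 WT libraries at 9.35 to 9.64. The log2 ratio of Flt1 to Kdr in WT replicate 1, the WT library of the first title code, was -2.53, below the other 4 at -2.21 to -2.11.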

How the results depend on the processing

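Of the 30 log2 fold changes of the 10 genes, 12 kept their sign in every alternative run, among them Angpt2 in all 3 comparisons, Nrp1 in both comparisons with DH-LMP2A, and Flt1 and Kdr against WT. The cause of the changes below was not tested. Unless named otherwise, values are log2 fold changes or counts of genes called, out of 10 for the axis genes and 67 for the other listed genes. Calls over all genes changed with the setting too. Of 16738 genes, the main edgeR fit called 334 for LCDD against DH-LMP2A, 308 for LCDD against WT and 105 for DH-LMP2A against WT. In the same order, the block called 1021, 536 and 562 and the tubule covariate 1000, 284 and 736. The endothelial covariate called 205, 674 and 210, the podocyte covariate 418, 375 and 817 and the Ddx3y covariate 385, 22 and 54. DESeq2 called 811, 725 and 461 of the genes it tested.

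With DESeq2, 2 axis genes were called for LCDD against DH-LMP2A (Nrp1 0.86) and 1 for DH-LMP2A against WT (Nrp1 -0.83), and 4 listed genes for LCDD against WT. At a mean of at least 5 CPM, listed calls were 3 against DH-LMP2A and 0 against WT for LCDD, Pgf for DH-LMP2A against WT was 0.01, and the title code called 3 axis genes. With only the genotypes compared, LCDD against DH-LMP2A called 0 axis genes (Angpt2 1.31) and 1 listed gene, and LCDD against WT 1 listed gene. The title code as a replicate block called 2 axis genes for LCDD against DH-LMP2A (Nrp1 0.87) with Tek at -0.01, and for DH-LMP2A against WT 3 axis genes (Flt1 -1.21, Kdr -1.40, Nrp1 -0.86) and 4 listed genes; the block changed the call of no other axis gene. It added Vash1 to the listed genes called for LCDD against DH-LMP2A.

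With the tubule covariate, LCDD against DH-LMP2A called 2 axis genes (Nrp1 0.96), LCDD against WT called 0 listed genes with Vegfa at 0.17 and Nrp1 at -0.14, and DH-LMP2A against WT called 3 axis genes (Flt1 -1.43, Kdr -1.79, Nrp1 -1.09) and 9 listed genes with Vegfc at -0.07. With the endothelial covariate, LCDD against DH-LMP2A called 0 axis genes (Angpt2 1.21) and 1 listed gene, with Vegfa at 0.31, Pgf -0.13, Flt1 -0.25, Kdr -0.26, Tek -0.51 and Tie1 -0.23. LCDD against WT then called 4 listed genes with Tie1 at 0.01, and DH-LMP2A against WT gave Vegfa -0.98, Pgf 0.45, Angpt1 0.03, Tek 0.18, Tie1 0.25 and Ephb4 0.13. With the podocyte covariate, LCDD against DH-LMP2A called 2 axis genes (Nrp1 0.67) with Vegfa at 0.08, Tek -0.44 and Tie1 0.00, LCDD against WT gave Vegfa 0.40 and Nrp1 -0.22, and DH-LMP2A against WT called 3 axis genes (Flt1 -1.05, Kdr -1.17, Nrp1 -0.89) and 7 listed genes with Vegfc at -0.02. With the Ddx3y covariate, LCDD against WT called 0 listed genes, with Vegfc at -0.14, Tek 0.13 and Shc1 -0.07, and DH-LMP2A against WT gave Vegfa -0.36, Vegfc -0.93, Pgf 0.15, Angpt1 0.20, Tek 0.12 and Aplnr 0.36.

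Endothelial covariate and replicate block together called 0 axis and 0 listed genes for LCDD against DH-LMP2A (Angpt2 1.45, Pgf -0.38, Flt1 -0.31, Kdr -0.19, Tek -0.48, Tie1 -0.20) and 1 listed gene against WT, and DH-LMP2A against WT gave Vegfa -0.51, Vegfc -0.11, Pgf 0.86, Angpt1 0.06, Tek 0.24, Tie1 0.10, Aplnr 0.29 and Epas1 0.02. Podocyte covariate and replicate block called 0 axis and 0 listed genes for LCDD against DH-LMP2A (Angpt2 1.23, Vegfa 0.21, Vegfc -0.28, Tek -0.41, Tie1 -0.07) and 0 listed genes against WT (Vegfa 0.44, Vegfc -0.07, Nrp1 -0.08), and for DH-LMP2A against WT 1 axis gene (Nrp1 -0.85) and 2 listed genes. Ddx3y covariate and replicate block called 2 axis genes for LCDD against DH-LMP2A (Nrp1 0.85) with Tek at -0.02, 0 listed genes for LCDD against WT (Vegfc -0.51, Shc1 -0.06), and gave Vegfc -1.13 and Pgf 0.45 for DH-LMP2A against WT. That fit called no axis gene for DH-LMP2A against WT, and 3 of all 16738 genes against 562 with the block alone. The endothelial covariate with the block also called no axis gene there, and 17 of all genes.

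Without the 3 single-mouse WT libraries, listed calls for LCDD were 2 against DH-LMP2A and 0 against WT, and DH-LMP2A against WT gave Vegfc -0.17 and Pgf 0.17. Without the libraries of the first code, Tek for LCDD against DH-LMP2A was -0.10, and 1 listed gene was called in each comparison with WT. Leaving out each replicate in turn gave 0 to 2 axis and 1 to 6 listed genes for LCDD against DH-LMP2A, 0 to 4 listed genes for LCDD against WT, 0 to 1 for DH-LMP2A against WT and 0 to 5 axis genes for the title code. The ranges for LCDD against DH-LMP2A were 1.14 to 1.55 for Angpt2, 0.76 to 0.98 for Nrp1, -0.09 to 0.60 for Flt1, -0.35 to 0.30 for Tek and -0.01 to 0.45 for Tie1. For LCDD against WT they were -0.07 to 0.14 for Nrp1, -0.32 to 0.14 for Tie1 and -0.75 to 0.09 for Vegfa, and for DH-LMP2A against WT -0.25 to 0.18 for Pgf and -0.02 to 0.35 for Vegfa.

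The counts carry no molecular identifiers, so depth covers counting error only; 3 counts, taken as the floor, are 0.0981 to 0.180 CPM, and each axis gene lay above it in every library.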
